A study of Mus musculus with 8 samples.

Results

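The genes described here are the growth hormone receptor gene Ghr, the insulin-like growth factor genes Igf1 and Igf2, and 6 genes of IGF-binding proteins, Igfbp2 to Igfbp7, in mouse epididymal fat. They were chosen by gene symbol, as every probe set whose platform annotation names 1 of these 9 genes, and not by their values. This gave 11 probe sets of 13069 in all, 5 on Affymetrix chip A and 6 on chip B, and no gene was without one. Igfbp3 and Igfbp4 had 2 probe sets each, and that of Igfbp5 is annotated to Tmem119 as well.

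Growth hormone from the pituitary binds GHR on the cell surface, and JAK2 and STAT5 carry the signal to the nucleus, where Igf1 is a well known target. IGF1 and IGF2 act through the IGF1 receptor, and IGF-binding proteins hold them in blood and around cells, which limits or prolongs their action. In fat, growth hormone restrains lipid storage and favours lipolysis, and IGF1 promotes the formation of adipocytes from their precursors.

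The study set DU6 and DU6i against DUKs and DBA. By general knowledge, DU6 mice have been bred over many generations for heavy bodies, and DU6i was made from them by inbreeding. DUKs is the unselected control of the same origin, and DBA is an inbred strain. The labels give no allele or treatment for any of them. Each line was 1 pool of epididymal fat RNA from 20 males aged 42 days, hybridised once to each chip (8 arrays), so that a line has 1 value per probe set and no replicate. Pooling, per the labels, was meant to even out individual animals, and it hides the differences between them. A sample of whole fat cannot tell fewer cells of a type from less RNA per cell.

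Signals are the authors' scaled intensities, which can be negative. The negative signals of a chip gave its floor, which is the size that 95% of them do not exceed (1022.8 on chip A and 2258.25 on chip B), and a signal at or under it was taken as the floor. Of the 11 probe sets, 7 were above the floor on all 4 arrays of their chip, 2 on some and 2 on none. The tissue label was checked on adipocyte markers, of which 10 of 12 had a probe set, each above the floor in all 4 lines. Arrays of chip A had 3062 to 3350 probe sets over their floor, and arrays of chip B 1654 to 1839. The 99th percentile of the signals on chip A was 18810 in DU6, 34793 in DU6i, 27552 in DUKs and 23450 in DBA, so that the brightest signals of that chip reached different heights in the lines. On chip B it was 49489 in DU6, 34692 in DU6i, 52203 in DUKs and 33622 in DBA, another order. Germ cell markers, which fat should lack, were above the floor for all 3 genes on chip A, with summed signals of 19078 in DU6, 20644 in DU6i, 84578 in DUKs and 47886 in DBA. The pools stood further apart in genes of the epididymis and glands, of which 4 on chip B summed to 49126 in DU6, 253 in DU6i, 52116 in DUKs and 127320 in DBA. Gpx5, an epididymal gene, was under the floor of chip B in DU6i, and the seminal vesicle genes Svs2, Svs4 and Svs5 were above it there in DBA alone. The part of such tissue in the differences between these pools was not tested. Probe sets whose names end in f_at or s_at, which include 9 of these 11, were not held by Affymetrix to be unique to 1 transcript.

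The promoters of Ghr and Igfbp7, which differed most between lines, of Igfbp4, whose 2 probe sets gave like ratios, and of Igfbp6, which was highest in another line, are shown from 250 bases before to 50 bases after the start of the gene (RefSeq, GRCm38.p6). They include the first bases of the first exon. Those of Ghr (chr15:3583303-3583602) and Igfbp7 (chr5:77407996-77408295) lie on the minus strand, and those of Igfbp4 (chr11:99040994-99041293) and Igfbp6 (chr15:102143936-102144235) on the plus strand. For Ghr the farther upstream of 2 annotated starts is given. Capitals mark the letters TATAAA, the TATA box, or GGGCGG, the GC box, on either strand.
Ghr: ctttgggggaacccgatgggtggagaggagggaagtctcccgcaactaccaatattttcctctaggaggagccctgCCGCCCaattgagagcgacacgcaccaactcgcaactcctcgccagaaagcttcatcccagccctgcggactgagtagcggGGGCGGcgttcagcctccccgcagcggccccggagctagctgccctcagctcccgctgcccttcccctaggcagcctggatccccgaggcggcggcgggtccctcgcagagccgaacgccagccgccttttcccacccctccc
Igfbp7: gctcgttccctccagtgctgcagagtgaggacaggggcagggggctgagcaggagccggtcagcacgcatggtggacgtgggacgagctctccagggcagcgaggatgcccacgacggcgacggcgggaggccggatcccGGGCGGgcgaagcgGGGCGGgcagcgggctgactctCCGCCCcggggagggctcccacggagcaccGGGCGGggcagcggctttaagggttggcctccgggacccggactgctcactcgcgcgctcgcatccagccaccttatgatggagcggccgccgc
Igfbp4: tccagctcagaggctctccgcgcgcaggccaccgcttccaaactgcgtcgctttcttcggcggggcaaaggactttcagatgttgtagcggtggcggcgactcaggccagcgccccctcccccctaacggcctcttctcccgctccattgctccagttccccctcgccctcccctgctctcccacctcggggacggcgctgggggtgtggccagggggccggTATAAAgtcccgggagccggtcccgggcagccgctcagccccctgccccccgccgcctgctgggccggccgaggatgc
Igfbp6: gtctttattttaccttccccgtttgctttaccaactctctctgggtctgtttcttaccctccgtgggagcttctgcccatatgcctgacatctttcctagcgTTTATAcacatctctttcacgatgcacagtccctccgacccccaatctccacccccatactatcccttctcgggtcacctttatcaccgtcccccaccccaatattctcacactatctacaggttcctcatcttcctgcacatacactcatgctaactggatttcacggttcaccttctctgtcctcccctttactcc

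GGGCGG occurred 2 times in the Ghr promoter shown and 4 times in that of Igfbp7, and not in those of Igfbp4 and Igfbp6. Of all 32851 promoters, 35.7% hold it. TATAAA began 28 bases before the start of Igfbp4 and, on the opposite strand, 148 bases before that of Igfbp6, and 13.6% of all promoters hold it. CCAAT was found in the Ghr and Igfbp6 promoters shown (37.4% of all). The letters TTCNNNGAA, the core of sites bound by STAT5, were in none of the 14 promoters that the table holds for the 9 genes, and 8.30% of all promoters hold them. The searches covered both strands, and a GGGCGG and a CCAAT match share letters in the Ghr promoter shown and nowhere else in the 14. A match is a run of letters only.

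The receptor gene differed most between the lines. Ghr had signals of 1534 in DU6, 7106 in DU6i, 3710 in DUKs and 926 in DBA, the last of which lies under the floor. It was thus highest in DU6i and next in DUKs, and low in DU6 and DBA. Ghr in DU6 was 2.42-fold lower than in DUKs (log2 ratio -1.27), and Ghr in DU6i was at least 6.95-fold higher than in DBA. Between the related lines it was 4.63-fold lower in DU6 than in DU6i, and between the lines of the other side at least 3.63-fold higher in DUKs than in DBA. The series title puts DU6 and DU6i on the same side, and on that side lay both the highest Ghr signal and 1 of the 2 low ones.

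How far a ratio can stray from 1 probe set to another was judged from genes with 2 probe sets, whose ratios should be the same. The SD of a single log2 ratio was 0.44 for DU6 against DUKs (346 genes) and 0.34 for DU6i against DBA (348 genes). Ratios inside the 95% range of a normal error of this SD, up to 1.82-fold and 1.59-fold for these pairs, are said to lie within the probe set error. The limits were 1.86-fold for DU6 against DU6i, 1.75-fold for DUKs against DBA, 1.62-fold for DU6 against DBA and 1.71-fold for DU6i against DUKs. This error holds nothing of the differences between animals or pools. Effects common to a whole array, such as hybridisation or scaling, cancel out of it where both probe sets lie on 1 chip. A ratio beyond this error can therefore still be technical. For DU6 and DU6i, the 3' probe set of Gapdh gave 17218 and 35723 on chip A but 57839 and 38577 on chip B. In the order of its levels, Ghr differed beyond the probe set error between DU6i and DUKs and between DU6 and DUKs. The lowest lines, DU6 and DBA, gave a bound of 1.5-fold that does not exceed this error.

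**Figure D1:**
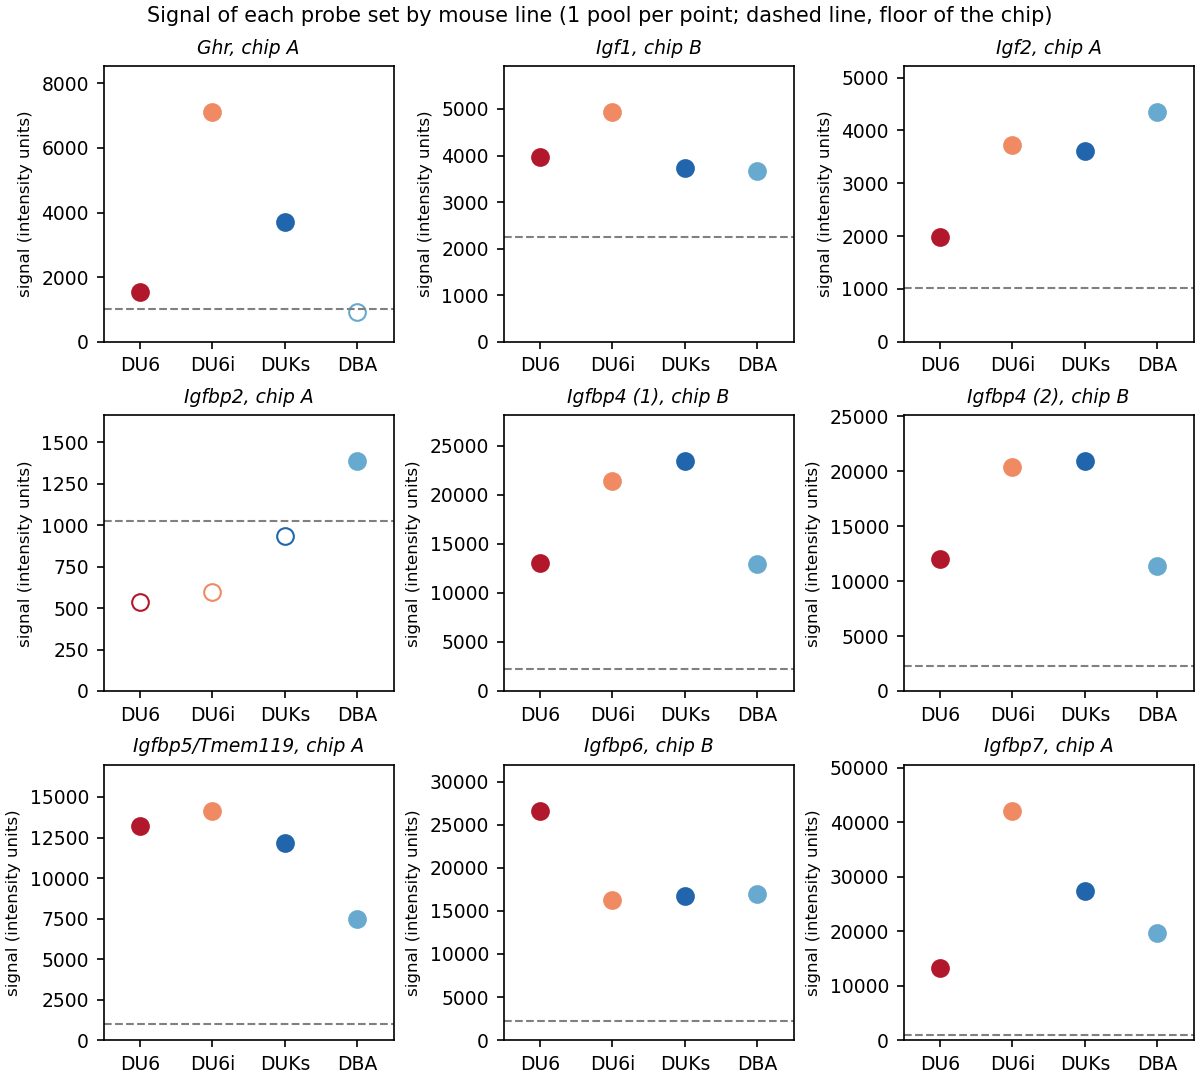
Signal in intensity units (linear axis from 0) of the 9 probe sets above the floor in at least 1 line, 1 point for the single pool of each line. The dashed line is the floor of the chip and open points lie under it. Ghr, Igfbp4 and Igfbp7 are higher in DU6i and DUKs than in DU6 and DBA, Igf1 is nearly level, and Igfbp6 is highest in DU6.

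The 2 ligand genes differed less. Igf1, the growth hormone-induced factor, had signals of 3960 in DU6, 4932 in DU6i, 3736 in DUKs and 3669 in DBA. All 4 values lay within 1.34-fold of each other, and every step in their order was within the probe set error. The 6.95-fold bound on Ghr between DU6i and DBA stood beside an Igf1 ratio of 1.34-fold in the same pair.

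Igf2, the fetal growth factor expressed from the paternal allele, had signals of 1986 in DU6, 3732 in DU6i, 3617 in DUKs and 4345 in DBA. DU6 was the low line and the other 3 were close together. In DU6, Igf2 was 1.82-fold lower than in DUKs and 1.88-fold lower than in DU6i, each just beyond the probe set error. With the error taken from the same probe sets read on both chips, controls not left out (SD 0.49 in DU6 against DU6i), the ratio to DU6i is within it. Igf2 was 2.19-fold lower in DU6 than in DBA. Steps among DU6i, DUKs and DBA lay within the error.

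Among the binding proteins with a high affinity for IGFs, IGFBP4 is an inhibitor of IGF action that the protease PAPP-A cleaves. Its first probe set gave 13081 in DU6, 21423 in DU6i, 23388 in DUKs and 12948 in DBA. Its second gave 12051, 20346, 20896 and 11343 in the same lines. DU6i and DUKs were high and DU6 and DBA low by each, and the 2 log2 ratios of a pair of lines never differed by more than 0.12. Igfbp4 was 1.79-fold and 1.73-fold lower in DU6 than in DUKs by its 2 probe sets, which is within the probe set error of that pair. In DU6i against DBA it was 1.65-fold and 1.79-fold higher, beyond the error. Both names end in f_at, and whether the probe sets read separate parts of the mRNA is not known here. They cannot be taken as independent.

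Igfbp6, whose protein prefers IGF2 to IGF1, had signals of 26648 in DU6, 16240 in DU6i, 16675 in DUKs and 16961 in DBA. DU6 stood above the other 3 lines, which lay within 1.04-fold of each other. Igfbp6 was 1.60-fold higher in DU6 than in DUKs and 1.64-fold higher in DU6 than in DU6i, both within the probe set error. Igf2, which IGFBP6 binds, was lowest in DU6 and Igfbp6 highest there. The first was measured on chip A and the second on chip B. The 3' probe set of Gapdh was likewise lowest in DU6 on chip A (17218) and highest there on chip B (57839). The part of the chips in this contrast was not tested.

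The probe set annotated to both Igfbp5 and Tmem119 had signals of 13213 in DU6, 14165 in DU6i, 12189 in DUKs and 7478 in DBA. It cannot be assigned to either gene here. DBA was its low line, and the value in DU6i was 1.89-fold higher than that in DBA, beyond the probe set error, against 1.08-fold in DU6 over DUKs.

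Igfbp2, which encodes a binding protein of blood and fetal tissues, was above the floor in DBA alone. Its signals were 539 in DU6, 594 in DU6i, 934 in DUKs and 1385 in DBA. In DU6i it was at least 1.35-fold lower than in DBA, a bound set by the floor that does not show whether the ratio exceeds the probe set error. With the floor halved, the log2 ratio of DU6i to DBA was -1.22, past 2-fold. DU6 against DUKs gives no ratio because both were under the floor. Igfbp2 and Igfbp5 are neighbours on chromosome 1 in the reference annotation, and DBA was the high line for Igfbp2 and the low line for the probe set of Igfbp5 and Tmem119.

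Igfbp3, the main carrier of IGFs in blood, was not detected above the floor. Its probe sets ranged from -1506 to -716 and from -743 to -287 over the 4 lines, all below 0. No ratio between lines can be given for it. A signal at this level says that Igfbp3 was not detectable on these arrays. Its neighbour Igfbp1, mainly a liver gene, gave 2313 in DU6, 606 in DU6i, 2509 in DUKs and 2456 in DBA by its brightest probe set. These lay little above the floor in DU6, DUKs and DBA and under it in DU6i. The other Igfbp1 probe sets were under the floor in all 4 lines.

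Igfbp7, whose protein binds IGFs weakly and is abundant around blood vessels, had signals of 13168 in DU6, 42185 in DU6i, 27471 in DUKs and 19633 in DBA. DU6i was highest and DU6 lowest, a 3.2-fold difference. Set against DUKs, Igfbp7 in DU6 was 2.09-fold lower, and it was 2.15-fold higher in DU6i than in DBA, both beyond the probe set error. Each single step in the order of the 4 lines was within it.

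The order of Igfbp7 over the lines was also that of other probe sets of its chip, and of the 99th percentile of the signals on chip A. The 3' probe set of Gapdh, a housekeeping gene, gave 17218 in DU6, 35723 in DU6i, 29329 in DUKs and 23916 in DBA on chip A. The summed signal of the 8 adipocyte markers on chip A was 112658 in DU6, 295757 in DU6i, 194295 in DUKs and 149450 in DBA. The same lines thus came highest and lowest in Igfbp7, in Gapdh and in the adipocyte sum. This holds for chip A: on chip B, Gapdh gave 57839 in DU6, 38577 in DU6i, 47886 in DUKs and 31430 in DBA, and the 2 adipocyte markers there summed to 66154 in DU6, 44647 in DU6i, 68483 in DUKs and 38133 in DBA. Of the adipocyte markers on chip A, Lep and Pparg were lowest in DBA and not in DU6. Endothelial markers on chip A, all 4 above the floor somewhere, summed to 14505 in DU6, 16846 in DU6i, 12075 in DUKs and 10363 in DBA, another order. Macrophage markers on chip A summed to 23192 in DU6, 45104 in DU6i, 36533 in DUKs and 27528 in DBA, the order of Igfbp7. Most of this sum was Lyz2, with 19244 in DU6, 41964 in DU6i, 34013 in DUKs and 26092 in DBA. Cd68 was highest in DU6 and lowest in DBA. Macrophage markers on chip B summed to 31084 in DU6, 32217 in DU6i, 19448 in DUKs and 16684.5 in DBA, another order. Sums of the stromal, smooth muscle, mesothelial and germ cell markers on chip A had other orders. The order of Igfbp7 was thus also that of Gapdh and Lyz2 on chip A, which are not on the adipocyte list. After quantile normalisation, which gives the arrays of a chip 1 distribution, the log2 ratio of Igfbp7 was -0.88 in DU6 against DUKs and 0.55 in DU6i against DBA. The part of the cell types in these ratios was not tested.

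Ghr and Igfbp4 moved with another property of the pools. Pyruvate carboxylase (Pcx) has control probe sets along its mRNA. On chip A the signal at the 5' end, as percent of that at the 3' end, was 1.08% in DU6, 11.7% in DU6i, 14.2% in DUKs and 1.46% in DBA. On chip B these values were 2.31%, 12.4%, 14.8% and 1.15%. DU6i and DUKs were high and DU6 and DBA low, as for Ghr and Igfbp4, and this split crosses both main pairs in opposite directions. The 5' to 3' share of actin on chip A was 47.2% in DU6, 40.6% in DU6i, 58.0% in DUKs and 43.0% in DBA, and does not split the lines in that way. On chip B it was 36.3% in DU6, 58.1% in DU6i, 60.2% in DUKs and 52.7% in DBA, where DU6i and DUKs were again the highest, though DBA was near them. That of Gapdh was 111% in DU6, 97.0% in DU6i, 84.7% in DUKs and 82.1% in DBA on chip A, and 69.3%, 111%, 71.1% and 116% in these lines on chip B, so that it does not follow Pcx on either chip. In the pairs with like Pcx values, Igfbp4 lay within the probe set error, and Ghr was at least 1.5-fold higher in DU6 than in DBA and 1.92-fold higher in DU6i than in DUKs. The part of the 5' signal in these differences was not tested.

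**Figure D2:**
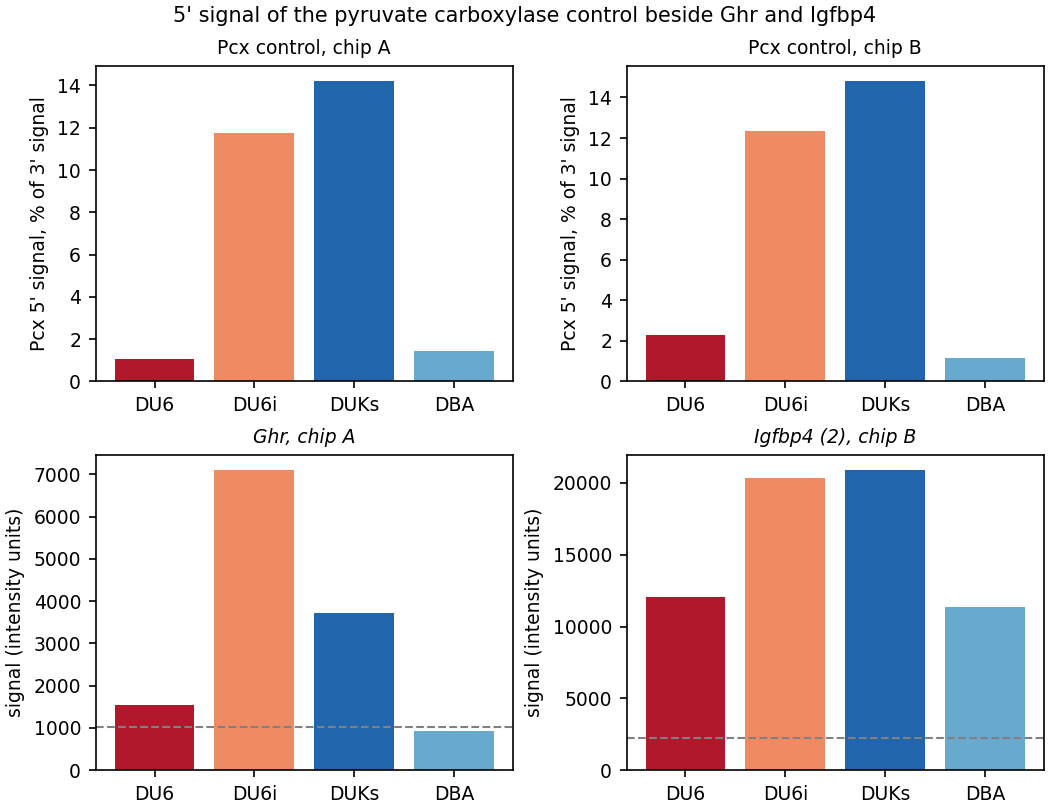
Upper panels show the 5' signal of the Pcx control as percent of its 3' signal on chip A and chip B, and lower panels the signals of Ghr (chip A) and of the second Igfbp4 probe set (chip B), with the floor as a dashed line. Bars start at 0 and stand for 1 pool of each line. In all 4 panels DU6i and DUKs are above DU6 and DBA.

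The first main pair asked how the selected DU6 line differs from DUKs. Of 8 member probe sets measured there, 2 were at least 2-fold lower in DU6, those of Ghr and Igfbp7, and 0 at least 2-fold higher. Over all 5604 probe sets measured in this pair, 10.2% were at least 2-fold apart. The median log2 ratio of the members was -0.82, against 0.05 for all probe sets, with Igfbp4 counted by 2 probe sets. Higher in DU6, under 2-fold, were Igfbp6 (1.60-fold), the Igfbp5 and Tmem119 probe set (1.08-fold) and Igf1 (1.06-fold).

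In the second main pair, DU6i against DBA, 2 of 9 were at least 2-fold higher in DU6i, again Ghr and Igfbp7, and 0 at least 2-fold lower. The share over all 5556 probe sets was 11.5%. The members' median log2 ratio was 0.73 and that of all probe sets -0.03. Igf2 (1.16-fold), Igfbp6 (1.04-fold) and Igfbp2 (a bound of 1.35-fold) lay lower in DU6i.

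Ghr, Igfbp4 by both probe sets, Igfbp6 and Igfbp7 thus had opposite signs in the main pairs, 5 of 8 probe sets measured in each. Of all 5085 probe sets measured in both pairs, 56.3% had opposite signs, so that the members' count is near that of the arrays as a whole. That of Igfbp6 rests on a log2 ratio of -0.06 in DU6i against DBA, within the probe set error. For Ghr the log2 ratios were -1.27 in DU6 against DUKs and at least 2.80 in DU6i against DBA. These pairs share no array. A test of the difference between them was not possible with 1 pool per line.

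**Figure D3:**
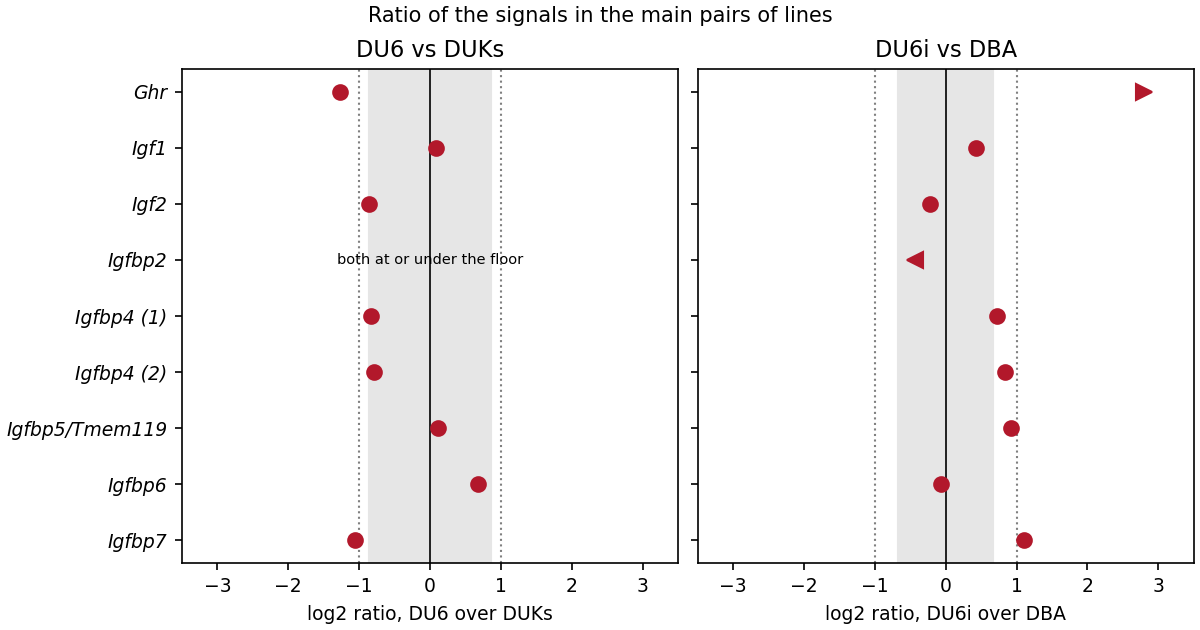
Log2 ratio of each probe set in DU6 over DUKs (left) and DU6i over DBA (right), with triangles for ratios against a signal under the floor, which are bounds. The grey band is the 95% range of the probe set error and dotted lines mark 2-fold. Ghr and Igfbp7 lie past 2-fold on the low side in the first pair and on the high side in the second.

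The remaining pairs place these values. In DU6 against DU6i, 2 of 8 were at least 2-fold lower in DU6 (Ghr and Igfbp7), where 10.5% of all probe sets were 2-fold apart. In DUKs against DBA, Ghr was the 1 of 9 past 2-fold (11.3% of all), and in DU6 against DBA it was Igf2 (7.96% of all). In DU6i against DUKs 0 of 8 were 2-fold apart (10.1% of all), with Ghr at 1.92-fold the widest. The pairs share arrays, so that their values are not independent.

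Both sides of the title were then compared with limma's moderated test, DU6 and DU6i against DUKs and DBA, fitted over the 5267 probe sets that exceeded the floor in 2 or more of the 4 lines. Of the 8 member probe sets fitted, 0 passed an adjusted p of 0.05 (Benjamini-Hochberg over all probe sets), and 0 had an unadjusted p under 0.05. Over all probe sets 0 passed as well (0%), and 252 had an unadjusted p under 0.05. Ghr was 0.76 higher on the log2 scale on the DU6 and DU6i side with a standard error of 0.87, so that its spread between lines of a side exceeded the difference. Igfbp7 differed by 0.02 ± 0.56 and Igf1 by 0.26 ± 0.30 (SE, 2 lines per side). Igf2 was lower on that side, at -0.54 ± 0.38, and the probe set of Igfbp5 and Tmem119 higher, at 0.52 ± 0.33. Single lines set these sizes: Igf2 differed by -0.09 without DU6 and by -0.997 without DU6i, and the Igfbp5 and Tmem119 probe set by 0.17 without DBA and by 0.87 without DUKs. The smallest unadjusted p of a member was 0.169, and the smallest adjusted p of a member by limma was 0.9998. The lines are not independent, because DU6i comes from DU6, and this test measures the spread between lines.

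Other genes of the pathway were taken from 5 lists. Of 55 genes, 34 had a probe set of their own, 19 were above the floor in at least 1 line and 10 in all 4. In DU6 against DUKs 0 of 14 measured genes were 2-fold apart, with a median log2 ratio of 0.42. In DU6i against DBA 1 of 17 was higher and 0 lower, with a median of 0.06. Over all probe sets these medians were 0.05 and -0.03, and 10.2% and 11.5% were at least 2-fold apart. In the other pairs at most 2 genes were 2-fold apart, against 7.96% to 11.3% of all probe sets. The 1 gene higher in DU6i than in DBA was Adam12, a metalloprotease that cleaves IGF-binding proteins. It had signals of 514 in DU6, 2074 in DU6i, 853 in DUKs and 404 in DBA, at least 2.03-fold higher in DU6i. It was above the floor in DU6i alone, so that it was measured only through the line where it is high.

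Genes that act behind the receptor are given for their place in the pathway. Jak2, the kinase bound to GHR, had 1083 in DU6, 1418 in DU6i, 1335 in DUKs and 1597 in DBA by its brightest probe set, near the floor. Stat5a, the transcription factor it activates, had 5297 in DU6, 4562 in DU6i, 3843 in DUKs and 4577 in DBA. Neither reached 2-fold in any main pair. Cish, an inhibitor induced by STAT5, had 1961 in DU6, 1379 in DU6i, 1706 in DUKs and 958 in DBA, the last under the floor. Socs2, another STAT5-induced inhibitor of growth hormone signalling, was above the floor in DBA alone (893 in DU6, 966 in DU6i, 519 in DUKs and 1478 in DBA). Between DU6i and DBA, Cish differed in the direction of Ghr, at least 1.35-fold higher in DU6i. Socs2 differed in the opposite direction, at least 1.45-fold lower in DU6i. Neither bound shows whether the ratio exceeds the probe set error.

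Of the receptors for the ligands, Igf1r had no probe set of its own here. Igf2r, which takes up IGF2 for degradation, was above the floor in DU6 alone (1381 in DU6, 863 in DU6i, 755 in DUKs and 809 in DBA). Insr, the insulin receptor, was under the floor in all 4 lines. Among the downstream kinases, Akt2 was at least 1.80-fold higher in DU6i than in DBA. It was above the floor in DU6i alone, so that it was measured only through the line where it is high. The PI3-kinase subunit gene Pik3ca was 1.95-fold higher in DU6 than in DUKs by its brightest probe set. Its other probe sets, on chip B, were under the floor in all 4 lines. Igfals, the partner of IGFBP3 in blood, was above the floor in DU6i alone, at 2010. Htra1, a secreted protease that acts on IGF-binding proteins, had 20326 in DU6, 21585 in DU6i, 14648 in DUKs and 20704 in DBA.

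The genes nearest in pattern to each member that differed 2-fold or more between its highest and lowest line were found among 3055 probe sets of chip A, by the distance between log2 signals centred over the 4 lines. Nearest to Ghr were Sptbn1, a spectrin (distance 0.50), Anp32a, a nuclear phosphoprotein (0.60), and Raly, an RNA-binding protein (0.64). Sptbn1 had 2418 in DU6, 11252 in DU6i, 5712 in DUKs and 2392 in DBA. All 3 shared with Ghr the high values in DU6i and DUKs. Their distances were larger than those of the nearest genes of the other members. The distance is not scaled to the range of a gene, and Ghr varied most. The SD of its log2 signals over the lines was 1.26, against 0.50 for Igf2 and 0.71 for Igfbp7. The distances therefore cannot show whether the pattern of Ghr is more distinctive.

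Nearest to Igfbp7 were Gnas, the stimulatory G protein subunit (distance 0.06), and the adipocyte genes Retn (0.09), which encodes resistin, and Lipe (0.11), the hormone-sensitive lipase. Gnas had 12939 in DU6, 43857 in DU6i, 27558 in DUKs and 19344 in DBA. The curves of the 4 genes nearly coincide, highest in DU6i and lowest in DU6. The 99th percentile of the signals on chip A had the same order of lines (18810 in DU6, 34793 in DU6i, 27552 in DUKs and 23450 in DBA). Igfbp7 was itself among the bright signals, from percentile 95.3 of the array in DU6 to 99.6 in DU6i. The part of the array spread in this likeness was not tested. For Igf2 the nearest were Wdr46, a nucleolar protein (0.13), Hnrnpc, an RNA-binding protein (0.14), and Cpe, carboxypeptidase E (0.15). With 4 lines, likeness of this kind is a description of these arrays.

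**Figure D4:**
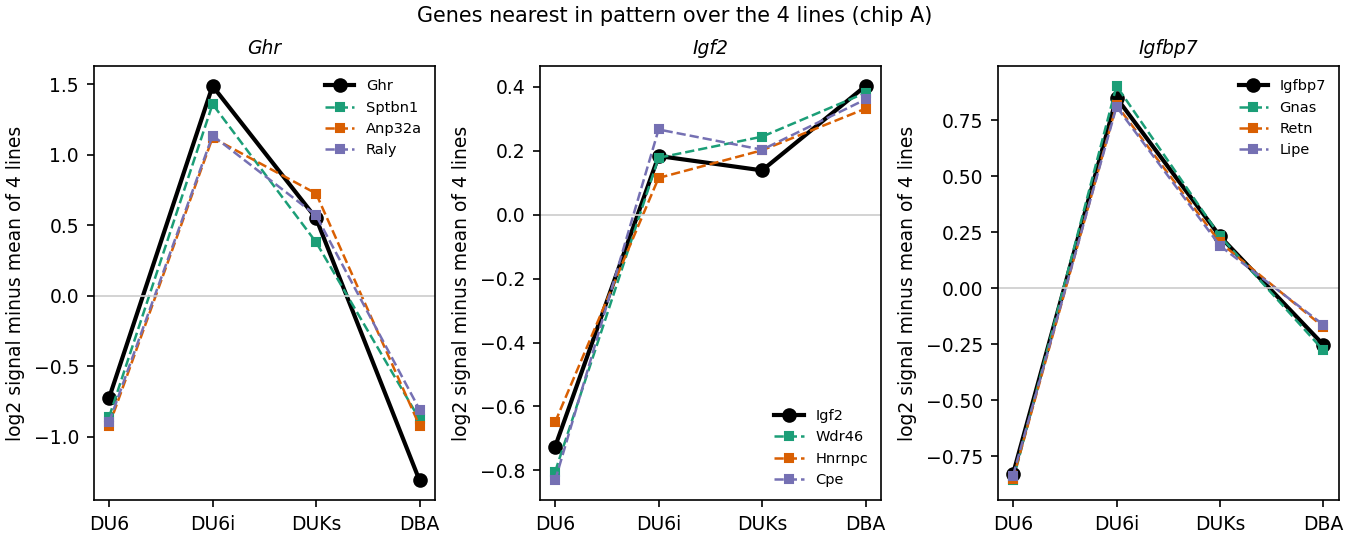
Log2 signal minus its mean over the 4 lines for Ghr, Igf2 and Igfbp7 (black) and the 3 genes nearest to each (dashed), with signals at or under the floor set to it. The curves of Igfbp7 and its neighbours nearly coincide, and those of Ghr and its neighbours share the peak in DU6i.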

How the data were processed

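RNA from epididymal fat of 4 mouse lines was measured as 1 pool per line on Affymetrix chips A and B. Microarray Suite 4.0.1 and Data Mining Tool 1.2 made the intensity values, per the labels, and the authors scaled arrays over all probe sets. On this linear scale 12.8% to 30.5% of the deposited values of an array were below 0. Such scaling sets the level of an array and leaves its spread as it was.

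The 55 control probe sets of each chip were left out of the ratios between lines, their counts and the limma fits. They were not left out of the floor, the figures given for each array and the symbol counts below. Nor were they left out of the probe set error taken from probe sets on both chips. Symbols came from the platform annotation, updated through RefSeq gene IDs. On chip A 5560 probe sets had 1 symbol, 197 several and 827 none, and on chip B 2001, 27 and 4567. Signals were compared within a chip, after setting values up to the floor to it and taking log2 of the deposited values. A ratio needed 1 array above the floor. For listed genes with several probe sets the brightest was used. The limma version was 3.58.1, in R 4.3.3, tested on simulated data.

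All probe sets of the 9 genes are named, then pathway genes that reached 2-fold in DU6 against DUKs or DU6i against DBA, the receptors, and the 3 nearest genes in pattern. Others of the lists (Jak2, Stat5a, Cish, Socs2, Akt2, Pik3ca, Igfals, Htra1, Igfbp1) were named after their values were seen. Members and lists were chosen with earlier results of these data known. Alternatives were 2 other scalings, 3 treatments of low signals, no filter, a 1.5-fold limit and leaving out lines. The number of arrays limits the precision.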

Additional observations from a re-analysis of the deposited data

Results flagged for a closer look

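The log2 ratios of 4 probe sets, 2 of them of Igfbp4, had opposite signs in the 2 main pairs and exceeded the SD of the probe set error in each. The share of all probe sets that meet both conditions was not computed. By sign alone, 56.3% of the 5085 probe sets measured in both pairs were opposite. Ghr had -1.27 in DU6 against DUKs and 2.80, a lower bound, in DU6i against DBA. Igfbp7 had -1.06 in DU6 against DUKs and 1.10 in DU6i against DBA. The first Igfbp4 probe set had -0.84 in DU6 against DUKs and 0.73 in DU6i against DBA, and the second -0.79 and 0.84 in the same pairs. With 1 pool per line the difference between the pairs was not tested. The Pcx 5' share moved with these signs (1.08% in DU6 and 14.2% in DUKs, 11.7% in DU6i and 1.46% in DBA on chip A), and its part in them was not tested.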

How the results depend on the processing

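Rescaling the arrays to one median, quantile normalisation, a floor halved or doubled, and log2(signal + floor) were tried. The log2 ratios of members past 2-fold kept their sign under every one of these settings. In DU6 against DUKs, 1 member probe set was 2-fold apart (2 as reported) with quantile normalisation, with the floor doubled and with log2(signal + floor). In DU6i against DBA, the count was 1 with quantile normalisation (2 as reported). Counts of 3 came after rescaling in both main pairs and in DU6 against DU6i, with quantile normalisation in DU6 against DU6i, and with the floor halved in DU6i against DBA (2 higher and 1 lower). In DUKs against DBA the count was 3 after rescaling and 0 with the floor doubled (1 as reported), and in DU6 against DBA it was 2 with the floor halved and 0 with log2(signal + floor) (1 as reported). With 1.5-fold in place of 2-fold, the counts were 6 in DU6 against DUKs, 5 in DU6i against DBA, 6 in DU6 against DU6i, 4 in DUKs against DBA, 3 in DU6 against DBA and 2 in DU6i against DUKs. Of all probe sets, 29.3%, 31.3%, 29.6%, 30.1%, 23.7% and 28.5% passed 1.5-fold in these pairs. The cause of these changes was not tested, except that a lower limit of size admits more by construction. The Ghr bound in DU6i against DBA follows the floor, with a log2 ratio between 1.80 and 2.94, and in DU6 against DUKs the Ghr ratio was -0.86 with the floor doubled and -0.89 with log2(signal + floor).

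By limma, 0 probe sets passed under every setting but 1, with no filter on low signals, where 5 of 13069 passed and 53.5% of the probe sets, at the floor on all 4 arrays, had no residual variance. Leaving out each line in turn gave 0 in all 4 fits, in which the lone line of a side is assumed to vary like the others. Member differences between the sides that lay near 0 changed sign. With quantile normalisation that of the first Igfbp4 probe set was 0.0011 and that of Igfbp7 -0.17, and after rescaling that of the second Igfbp4 probe set was -0.0077. Over the fits that leave out 1 line, that of Ghr ranged from -0.34 to 1.87, of the Igfbp4 probe sets from -0.48 to 0.37 and from -0.42 to 0.47, of Igf1 from 0.097 to 0.41, of Igf2 from -0.997 to -0.09, of the Igfbp5 and Tmem119 probe set from 0.17 to 0.87, of Igfbp6 from -0.050 to 0.66 and of Igfbp7 from -0.82 to 0.86. For Ghr the low end is the fit without DU6i, and that without DBA gave -0.17. For Igfbp6 the low end, -0.050, is the fit without DU6. The probe set error from 17 probe sets placed on both chips was 0.24 in DU6 against DUKs, 0.16 in DU6i against DBA, 0.49 in DU6 against DU6i, 0.30 in DUKs against DBA, 0.41 in DU6 against DBA and 0.35 in DU6i against DUKs, larger than that from genes with 2 probe sets in DU6 against DU6i and in DU6 against DBA. The error from both chips compares the same probe set on 2 arrays of a line, and control probe sets were not left out of it. No paired analysis was possible because each line has 1 pool on each chip. Igfbp3 was at the floor in all 4 lines and Igfbp2 in 3 of 4, which limits what can be said of them.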

Other observations

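A gene outside the lists of the pathway was read at unlike levels by its probe sets. Cdh5, the cadherin of endothelial cells, had 8936 in DU6, 10196 in DU6i, 7938 in DUKs and 6673 in DBA by 1 probe set of chip A. Another gave 3.5 in DU6, 1684 in DU6i, 1559 in DUKs and 54.2 in DBA, under the floor in DU6 and DBA. Its ratios against those lines are therefore bounds. By it DU6 was at least 1.52-fold lower than DUKs, and by the first 1.13-fold higher. That bound does not show whether the ratio exceeds the probe set error. Ctsd, a lysosomal protease that can degrade IGF-binding proteins, had 56229 in DU6, 28208 in DU6i, 42036 in DUKs and 24194 in DBA on chip B. This is 1.99-fold higher in DU6 than in DU6i. The 3' probe set of Gapdh on that chip had the same order of lines (57839 in DU6, 38577 in DU6i, 47886 in DUKs and 31430 in DBA). Whether the Ctsd ratio is particular to that gene was not tested. Cdh5 and Ctsd were picked after their values were seen.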
